A study of Bos taurus with 6 samples.

Results

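The maternal transcripts of pluripotency regulators were measured in bovine metaphase II oocytes, mature eggs arrested before fertilization. The set was chosen by name and holds 9 genes: POU5F1, NANOG, SOX2, KLF4, KLF5, KLF17, SALL4, LIN28A and LIN28B. Of these, 8 were matched by symbol among the 17325 genes of the 6 libraries. NANOG was found there neither by symbol nor by gene ID, so it was not analysed and its level is unknown. The oocytes had been matured in vitro. 3 libraries are labelled as negative control (NC) and 3 as knockdown of MTFP1 (siMTFP1), a gene for a mitochondrial inner membrane protein linked to fission. No source used here gives the breed, the age of the donors, the number of oocytes per library, the control reagent or its delivery.

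POU5F1, SOX2 and NANOG are the core transcription factors of pluripotent cells, and SALL4 and the KLF proteins act with them at many of the same genes. LIN28A and LIN28B are RNA-binding proteins that block the maturation of the let-7 microRNAs. In mammals the egg carries mRNA made during oocyte growth. The embryo relies on these stores until its own genome is activated, after which pluripotency factors are transcribed anew in the embryo.

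Levels are FPKM, fragments counted per kilobase of a transcript and corrected for the size of the library, so genes can be compared per length. Sequencing depth is unknown. MTFP1 itself was low in both groups and did not follow the labels: it was at 0.53, 0.55 and 0.05 FPKM in NC 1, 2 and 3 and at 0.43, 0.58 and 1.15 FPKM in siMTFP1 1, 2 and 3 (exact two-sided permutation test, p = 0.4, where 0.1 is the smallest possible). The groups are therefore called by their labels. All 16 oocyte markers examined were detected in every library, the lowest value being 1.45 FPKM, of NOBOX in NC 2. Of 20 cumulus and granulosa markers, 2 to 4 were at 0 per library, and their summed level was 149 to 349 FPKM in NC and 191 to 1161 FPKM in siMTFP1. The most abundant of them were TIMP1, from 13.1 FPKM in NC 2 to 955 FPKM in siMTFP1 2, and STAR, from 54.5 to 72.6 FPKM. HAS2 was at 33.8 to 49.9 FPKM and SERPINE2 at 13.3 to 43.1 FPKM, whereas FSHR, AMH, FOXL2 and CYP19A1 did not exceed 0.24 FPKM in any library. HAS2 and these 4 low genes were picked from the list after their values were seen. Of the 12 cumulus and granulosa markers tested, the siMTFP1 mean was above that of NC for 9 and below it for 3, with a median log2 difference of 0.27 beside 0.02 over all tested genes. 3 of the 12 (SERPINE2, VIM and INHA) were higher at an unadjusted limma p under 0.05, where 3.86% of all tested genes were, and 0 passed the adjusted threshold. Their part in the differences between groups was not tested. Markers of theca and stroma summed to 0.38 to 8.48 FPKM in NC and 1.12 to 24.1 FPKM in siMTFP1, and 5 leukocyte markers to 2.50 to 5.51 and 3.50 to 5.41 FPKM.

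The regulators ranged from moderate levels to near 0, and POU5F1 and SALL4 were the most abundant of them. Averaged over the 6 libraries, POU5F1 was at 32.8 FPKM, SALL4 at 20.7, SOX2 at 9.21, LIN28A at 6.38, KLF5 at 4.82, KLF4 at 1.89 and LIN28B at 0.173 FPKM, while KLF17 was listed at 0 in 5 libraries. POU5F1 ranked 2409th and SALL4 3167th among all genes by mean level. The median of the genes tested for a group difference was 8.57 FPKM, so that the means of POU5F1, SALL4 and SOX2 lay above it and those of the other regulators below it. SOX2 itself exceeded it only in NC 1 and siMTFP1 1, at 14.78 and 11.16 FPKM, and was at 6.62 to 8.26 FPKM in the other libraries. The 8 genes together summed to 77.55 to 85.14 FPKM per library in NC and 66.93 to 77.41 FPKM in siMTFP1. POU5F1 made up 30.7% to 48.6% of the sum, and the sums were not tested.

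**Figure D1:**
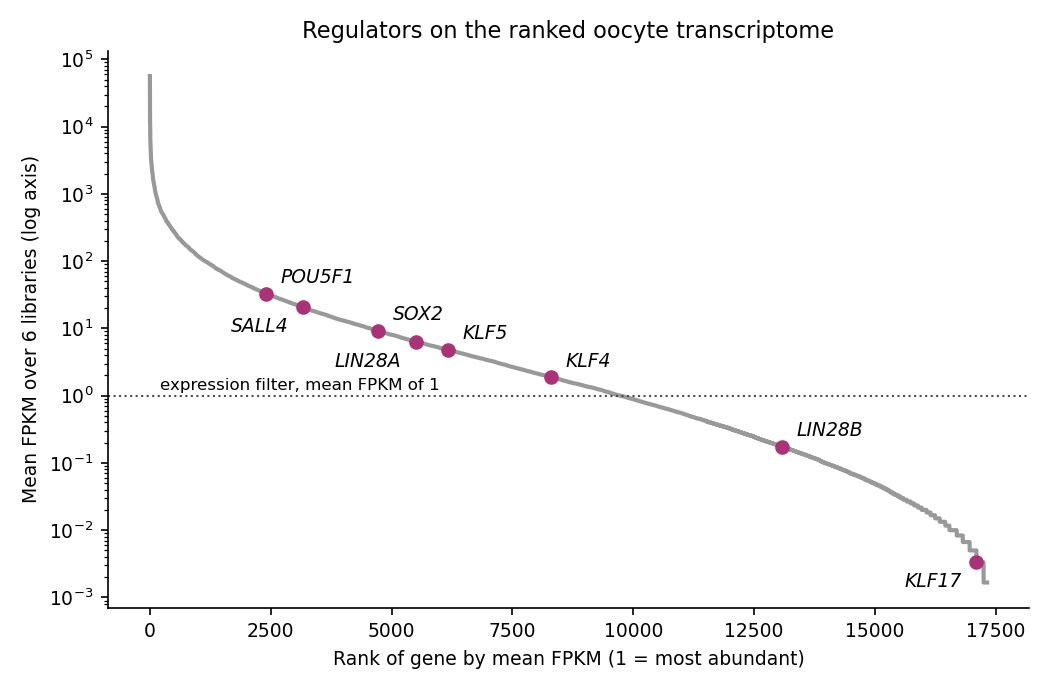
Mean FPKM over the 6 libraries (log axis) against the rank of each gene, with all genes as the grey line and the 8 regulators as circles; the dotted line is the expression filter at a mean of 1 FPKM. POU5F1 sits at rank 2409, 6 regulators lie above the filter, and LIN28B and KLF17 lie below it.

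Not every step in this order held in each library. POU5F1 exceeded SALL4 in 5 of 6 libraries, by 1.50-fold to 2.05-fold, while in siMTFP1 1 the ratio was 0.914. SALL4 exceeded SOX2 in 6 of 6 libraries, by 1.57-fold to 2.74-fold, and the ranges of both genes did not overlap. SOX2 and LIN28A had overlapping ranges, as had LIN28A and KLF5, although the gene named first was higher within each of the 6 libraries. These 2 steps were as small as 1.03-fold and 1.02-fold in single libraries. KLF5 exceeded KLF4 by 1.92-fold to 3.49-fold without overlap, and KLF4 exceeded LIN28B by at least 3.57-fold in every library.

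POU5F1 (NCBI gene ID 282316), which encodes the POU-domain factor OCT4, was the 1 regulator above the filter whose groups did not overlap. It was at 34.79, 38.71 and 36.56 FPKM in NC 1, 2 and 3 and at 23.76, 32.92 and 30.09 FPKM in siMTFP1 1, 2 and 3. All 3 siMTFP1 libraries lay below all 3 NC libraries, and siMTFP1 1 was the lowest. The means were 36.7 ± 1.96 and 28.9 ± 4.69 FPKM (SD, n = 3), so the siMTFP1 mean was lower by 21.2%. On the log2(FPKM + 1) scale the difference was -0.34 (SE 0.16, 95% interval -0.70 to 0.01). It did not pass the threshold of 0.05 (limma adjusted p = 0.766, Benjamini-Hochberg over the 9730 genes with a mean of at least 1 FPKM). The unadjusted limma p = 0.0578 stands beside p = 0.1 in the exact two-sided permutation test, the smallest that 3 against 3 allows. Among the tested genes, 5.05% had non-overlapping groups in the lower direction, against 1 of the 6 tested regulators. Without siMTFP1 1 the difference was -0.21 (limma adjusted p = 0.754), smaller by more than 1.5 times. Without siMTFP1 2, the library with the highest cumulus marker sum, it was -0.44 (limma adjusted p = 1.00), with the unadjusted p then under 0.05.

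**Figure D2:**
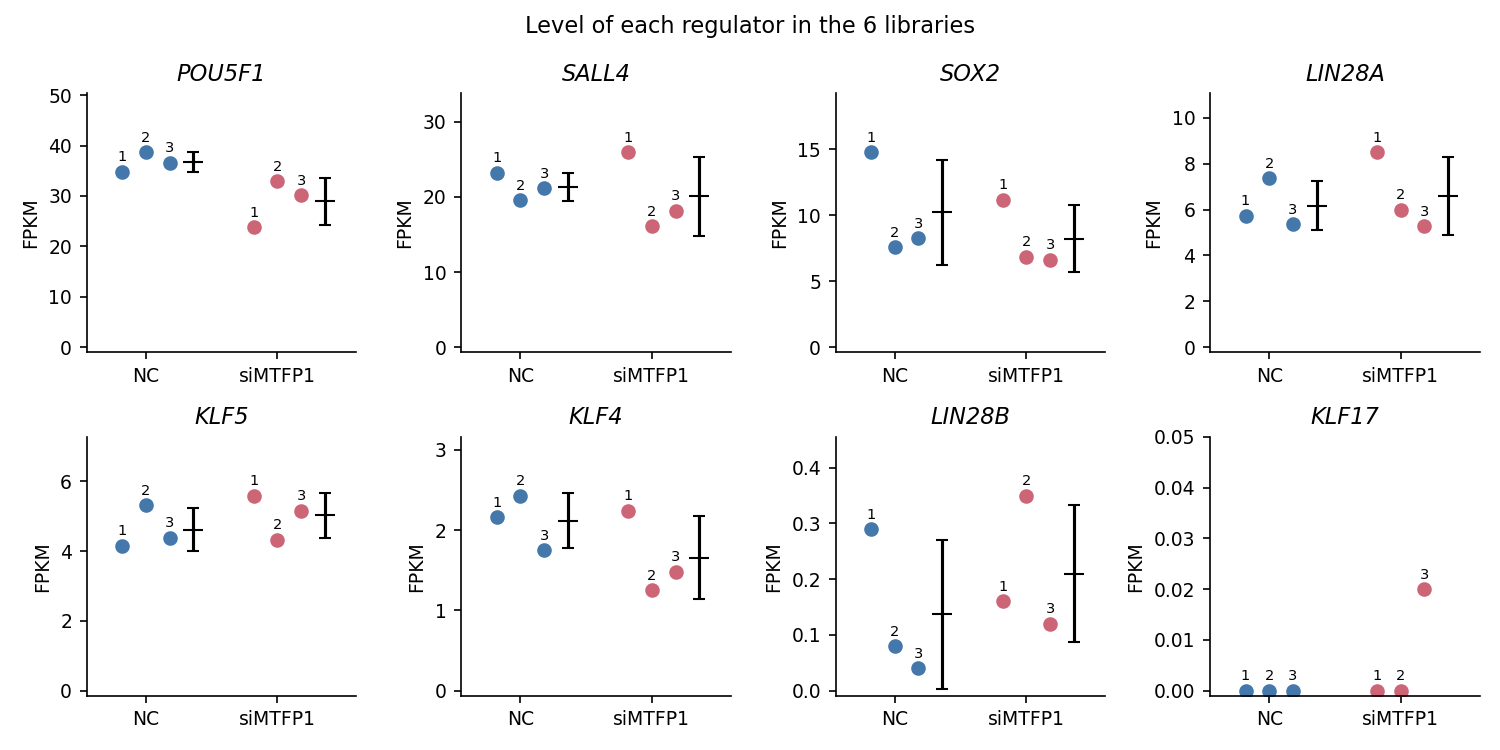
FPKM of each regulator in the 6 libraries, with NC in blue and siMTFP1 in red; numbers are the replicate numbers of the labels, and the black bars show the mean and SD of 3 libraries (left out for KLF17, which is listed at 0 in 5 libraries). The groups are separate for POU5F1, at 34.79 to 38.71 against 23.76 to 32.92 FPKM, and overlap for the other regulators above the filter.

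SOX2 (784383), the HMG-box partner of OCT4 on DNA, had the largest within-group spread of the 6 tested regulators. It was at 14.78, 7.59 and 8.26 FPKM in NC 1, 2 and 3 and at 11.16, 6.86 and 6.62 FPKM in siMTFP1 1, 2 and 3. NC 1 and siMTFP1 1 were the high libraries, and the groups overlapped. Its within-group SD on the log2 scale was 0.43, against a median of 0.22 over all tested genes, and 90.8% of those genes had a smaller one. Group means were 10.2 ± 3.97 and 8.21 ± 2.55 FPKM (SD, n = 3), and the log2 difference was -0.26 (SE 0.28, 95% interval -0.89 to 0.37, limma adjusted p = 0.914). The direction depended on NC 1, since without it the difference was 0.01. Without siMTFP1 1, the other high library, it was -0.48. In the RefSeq table an uncharacterized long noncoding RNA overlaps SOX2. No source used here says whether counting used strand, so reads of both cannot be told apart.

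The ratio of POU5F1 to SOX2 also separated NC 1 and siMTFP1 1 from the rest. It was 2.35 in NC 1 and 2.13 in siMTFP1 1, and between 4.43 and 5.10 in the other 4 libraries. The low and the high values each came from both labelled groups. The cause was not tested.

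SALL4 (541170), a zinc finger factor that binds POU5F1 regulatory DNA and recruits the NuRD deacetylase complex, was at 23.24, 19.58 and 21.19 FPKM in NC 1, 2 and 3. In siMTFP1 1, 2 and 3 it was at 25.99, 16.08 and 18.16 FPKM, so that its highest and lowest libraries both belonged to siMTFP1. Group means were 21.3 ± 1.83 and 20.1 ± 5.23 FPKM (SD, n = 3), and the log2 difference was -0.11 (SE 0.19, 95% interval -0.55 to 0.33, limma adjusted p = 0.954). The sign turned without siMTFP1 2 (0.03).

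The Krüppel-like factors of this set, zinc finger proteins that bind GC-rich promoter elements, were at low levels or near 0. KLF5 (535702) was at 4.15, 5.31 and 4.38 FPKM in NC 1, 2 and 3 and at 5.59, 4.32 and 5.16 FPKM in siMTFP1 1, 2 and 3, with overlap of the groups. Its means were 4.61 ± 0.614 and 5.02 ± 0.646 FPKM (SD, n = 3), and the log2 difference was 0.10 (SE 0.17, 95% interval -0.28 to 0.48, limma adjusted p = 0.952). KLF5 had the smallest within-group SD of the 6 tested regulators, 0.16 on the log2 scale. KLF4 (520842) was at 2.16, 2.43 and 1.75 FPKM in NC 1, 2 and 3 and at 2.24, 1.25 and 1.48 FPKM in siMTFP1 1, 2 and 3. Here siMTFP1 1 lay among the NC libraries and siMTFP1 2 and 3 lay below all of them. Group means were 2.11 ± 0.342 and 1.66 ± 0.518 FPKM (SD, n = 3), and the log2 difference was -0.24 (SE 0.19, 95% interval -0.68 to 0.20, limma adjusted p = 0.892). With a pseudocount of 0.1 in place of 1 the KLF4 difference was -0.36, and with 5 it was -0.10. The pluripotency factor KLF17 (516413) was listed at 0 in 5 libraries and at 0.02 FPKM in siMTFP1 3. RefSeq places the glycine transporter gene SLC6A9, a long noncoding RNA and 2 pseudogenes over the same stretch as KLF17, and SLC6A9 was also low, at 0.02 to 0.16 FPKM.

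LIN28A (614997) was the LIN28 paralog carried by these oocytes, and LIN28B (112448101) was near 0. LIN28A was at 5.73, 7.38 and 5.37 FPKM in NC 1, 2 and 3 and at 8.51, 6.00 and 5.28 FPKM in siMTFP1 1, 2 and 3. The highest and the lowest library were both siMTFP1, and the groups overlapped. Group means were 6.16 ± 1.07 and 6.60 ± 1.70 FPKM (SD, n = 3), and the log2 difference was 0.07 (SE 0.20, 95% interval -0.39 to 0.54, limma adjusted p = 0.974), and the sign turned without siMTFP1 1 (-0.10). LIN28B was at 0.29, 0.08 and 0.04 FPKM in NC 1, 2 and 3 and at 0.16, 0.35 and 0.12 FPKM in siMTFP1 1, 2 and 3. LIN28B was below the filter in both groups (exact two-sided permutation test, p = 0.5). LIN28A exceeded LIN28B by 17.1-fold to 134-fold across the 6 libraries.

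Of the 6 tested regulators, 4 had a lower and 2 a higher mean log2 level in siMTFP1, with a median difference of -0.17 beside 0.02 over all tested genes. An unadjusted limma p under 0.05 was reached by 0 of the 6, where 6.53% of all tested genes reached it, and 0 passed the adjusted threshold, as did 0% of all tested genes. The intervals left room for differences of up to 0.89 on the log2 scale in the lower direction (SOX2) and 0.54 in the higher direction (LIN28A). In bulk oocyte RNA, fewer cells of a type and less RNA per cell cannot be told apart. The labels do not say whether replicates came from separate collections or animals, so these p-values measure only the spread between the libraries, which may be technical.

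**Figure D3:**
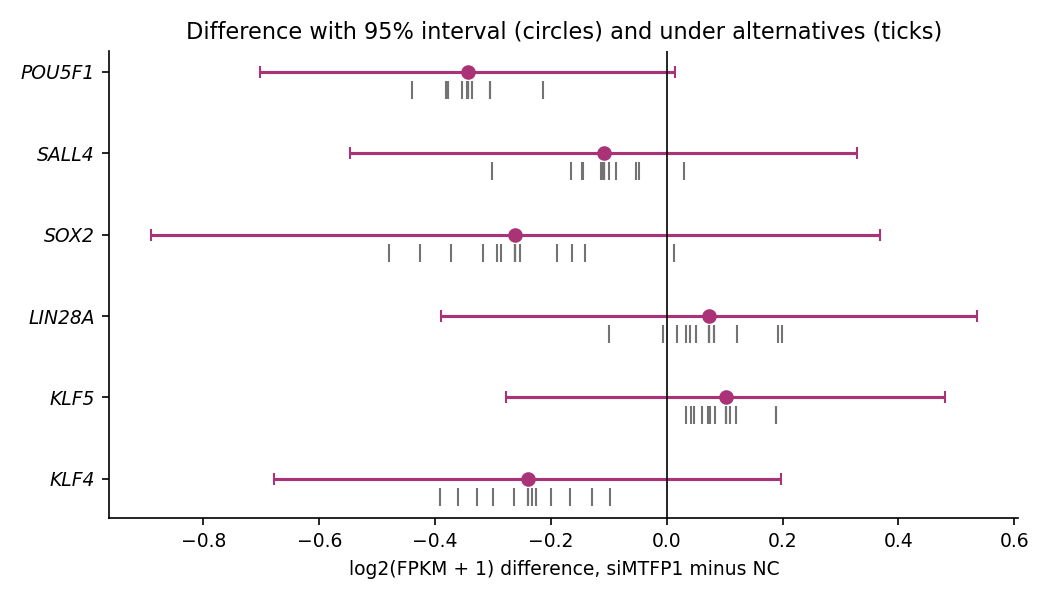
Difference between siMTFP1 and NC on the log2(FPKM + 1) scale for the 6 tested regulators, with 95% intervals from limma as bars and grey ticks for the value under each alternative processing or with 1 library left out. Every interval includes 0, and the POU5F1 values stay between -0.44 and -0.21.

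The regulators did not share 1 profile over the libraries. siMTFP1 1 had the highest SALL4, LIN28A and KLF5 and the lowest POU5F1 of the 6 libraries. siMTFP1 2, the library with the highest cumulus marker sum, had the lowest SALL4 and KLF4. SALL4 and SOX2 had the most similar profiles among the 6 (Pearson r = 0.81 over 6 libraries), followed by SALL4 and KLF4 (r = 0.75), while POU5F1 and KLF5 ran most opposite (r = -0.52). These coefficients describe 6 libraries and carry no test, and all genes of a library share its total. The part of the cumulus markers in these profiles was not tested.

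**Figure D4:**
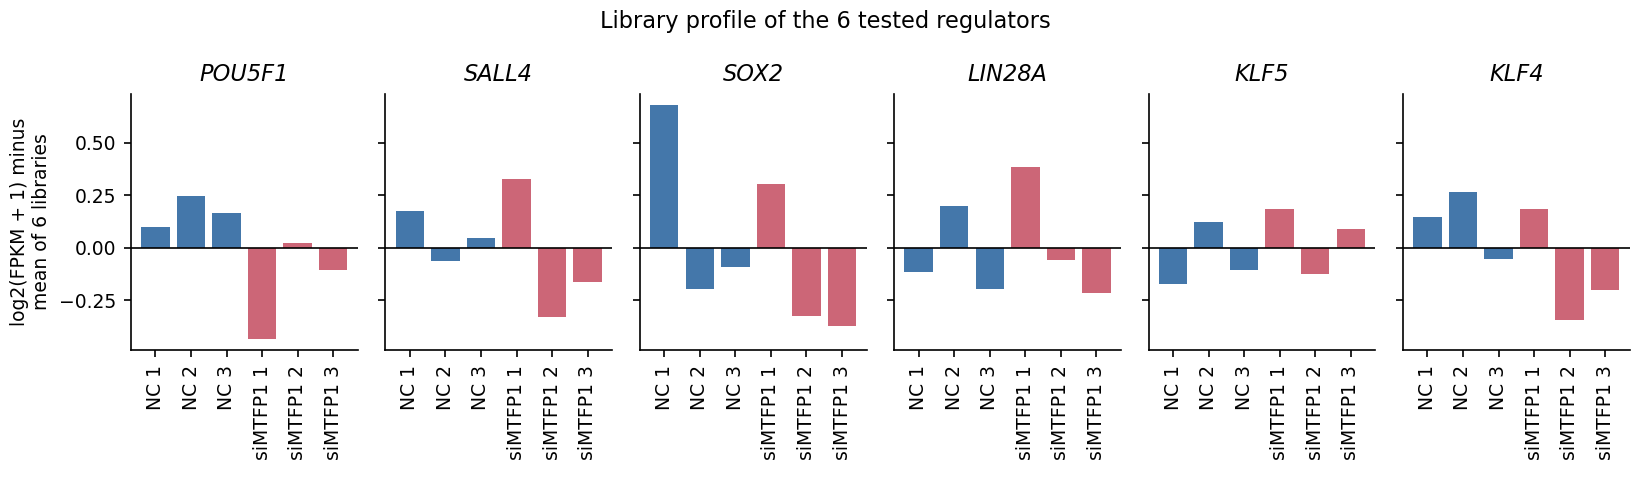
Deviation of each tested regulator from its own mean over the 6 libraries, in log2(FPKM + 1), with NC in blue and siMTFP1 in red. siMTFP1 1 is the lowest library for POU5F1 and the highest for SALL4, LIN28A and KLF5, and NC 1 stands out for SOX2.

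Among all tested genes that carry a symbol (LOC numbers left out), those whose profiles were most like POU5F1 over the 6 libraries were CXCL12 (r = 0.985), GABPA (0.982) and ACRV1 (0.980). For SALL4 they were TRIM37 (r = 0.991), GTF2E1 (0.990) and ETV1 (0.983), and for SOX2 they were ITPR1 (0.993), CCDC173 (0.989) and SLC24A2 (0.987). The genes most like LIN28A were RASA1 (r = 0.982), RIPK1 (0.981) and ZDHHC13 (0.979). SEMA7A (0.988), TMEM88B (0.984) and C18H19orf84 (0.983) were most like KLF5, and NSL1 (0.995), ATAD2B (0.989) and MYLIP (0.987) most like KLF4. The named genes have the highest of many coefficients, each over 6 points, and no test was run on them. An r of 0.9 was reached by 35 genes with POU5F1 and by 157 with SOX2. These counts leave out LOC numbers, which are included in the 9730 tested genes.

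Genomic neighbours of the regulators had levels of their own. TCF19, the next protein-coding gene after POU5F1 in RefSeq that reached the filter, averaged 9.97 FPKM, with a log2 difference of -0.07. ZFP64, the next protein-coding gene after SALL4, was far more abundant than SALL4 at 458 FPKM (log2 difference 0.03). ATP9A, the protein-coding gene before SALL4, was less abundant than SALL4 at 1.185 FPKM. PIBF1 beside KLF5 averaged 21.8 FPKM with a log2 difference of -0.37, the opposite sign to KLF5, and HACE1 beside LIN28B was at 24.1 FPKM. The neighbours named here were chosen after their values were seen.

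Other members of the same protein families were more abundant than several of the regulators. In the KLF and SP family, 12 of the 17 related genes in the files passed the filter, 8 with a higher and 4 with a lower mean in siMTFP1 (median log2 difference 0.08), and 6 and 6 after quantile normalization. The repressor KLF11 averaged 38.8 ± 7.14 FPKM in NC and 45.4 ± 5.51 in siMTFP1 (SD, n = 3), and SP2 25.8 ± 2.52 and 28.5 ± 2.38, both well above KLF5 and KLF4. KLF2, a close relative of KLF4, averaged 14.5 ± 3.49 and 18.7 ± 2.28 FPKM. KLF13 averaged 1.07 ± 0.388 and 2.29 ± 0.565 FPKM, a log2 difference of 0.67 (limma adjusted p = 0.661), and was the 1 gene of the 12 with an unadjusted p under 0.05, in the direction in which 3.86% of all tested genes had one. In KLF2 and KLF13 each siMTFP1 library lay above each NC library, which held for 5.97% of all tested genes in that direction. KLF7, named for this count after its values were seen, went the other way, at 1.95 to 2.66 FPKM in NC and 1.14 to 1.90 FPKM in siMTFP1. In that lower direction the groups did not overlap for 5.05% of all tested genes.

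Among the POU and SOX genes other than POU5F1 and SOX2, 8 of 22 passed the filter. All 8 had a lower mean in siMTFP1 (median log2 difference -0.15), as had 45.8% of all tested genes. An unadjusted limma p under 0.05 was reached by 0 of the 8, where 6.53% of all tested genes reached it. The 14 genes below the filter went mostly the other way, 10 with a higher and 4 with a lower mean. The most abundant were the SoxC factor SOX4, at 35.7 ± 17.1 and 34.2 ± 25.7 FPKM (SD, n = 3), and the POU factor POU2F3, at 27.3 ± 2.56 and 22.4 ± 1.94 FPKM. The single-library range of SOX4 ran from 13.4 to 63.0 FPKM, with the highest values in NC 1 and siMTFP1 1, the 2 libraries in which SOX2 was also highest. SOX15, a close relative of SOX2, averaged 8.17 ± 3.31 and 6.10 ± 0.161 FPKM. The 8 tested genes were also lower with FPKM rescaled to equal sums, median-ratio scaling and quantile normalization, with medians of -0.14, -0.17 and -0.20.

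The SALL4 cofactors ranged from the very abundant RBBP7 to 5 genes of the list below the filter. Of the SALL paralogs and NuRD subunits, 11 of 16 passed the filter, 9 higher and 2 lower in siMTFP1 (median log2 difference 0.04), with 2 of the higher ones at an unadjusted p under 0.05, beside 3.86% of all tested genes. After median-ratio scaling 6 were higher and 5 lower. The histone-binding subunit RBBP7 averaged 1925 ± 165 and 1934 ± 108 FPKM (SD, n = 3) and RBBP4 218 ± 17.0 and 235 ± 26.6 FPKM. The paralog SALL3 averaged 2.86 ± 0.387 and 4.56 ± 0.772 FPKM, a log2 difference of 0.52 (limma adjusted p = 0.720). The deacetylase HDAC2 averaged 13.4 ± 1.92 and 18.6 ± 2.83 FPKM, a log2 difference of 0.44 (limma adjusted p = 0.750).

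The LIN28 and let-7 list held microRNA processing enzymes, uridylyl transferases, mRNAs known as let-7 targets, and other RNA-binding proteins such as HNRNPA1. Of its 19 genes in the files 15 passed the filter, 7 higher and 8 lower (median log2 difference -0.02). An unadjusted limma p under 0.05 was reached by 0 of the 15, where 6.53% of all tested genes reached it. HMGA1, a chromatin protein, averaged 137 ± 7.02 and 125 ± 6.91 FPKM (SD, n = 3), and the RNA-binding protein IGF2BP3 averaged 130 ± 13.4 and 127 ± 21.9 FPKM. HNRNPA1 averaged 65.8 ± 10.2 and 76.5 ± 2.01 FPKM, and the nuclease DROSHA, which makes the first cut in microRNA precursors, averaged 42.6 ± 4.46 and 49.6 ± 6.88 FPKM. HMGA2 did not exceed 0.12 FPKM in any library, and was picked from the list after its values were seen.

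Of the partners of the pluripotency network, 19 of 34 passed the filter, 10 higher and 9 lower (median log2 difference 0.02), with 1 higher at an unadjusted p under 0.05, beside 3.86% of all tested genes. After median-ratio scaling 9 were higher and 10 lower. ID3, an inhibitor of basic helix-loop-helix factors, averaged 14558 ± 241 and 15394 ± 1247 FPKM (SD, n = 3), and the maternal factor DPPA3, which guards the maternal genome from demethylation, 5308 ± 476 and 5286 ± 249 FPKM. UTF1, a chromatin factor of pluripotent cells, averaged 3.89 ± 0.505 and 5.93 ± 1.14 FPKM, a log2 difference of 0.50 (limma adjusted p = 0.750). TCF7L1, a repressor of pluripotency genes, averaged 4.87 ± 0.887 and 3.81 ± 0.445 FPKM. The naive-state factors ESRRB and TFCP2L1 did not exceed 0.1 FPKM in any library, and both were picked after their values were seen.

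Of 37 listed factors of embryonic genome activation, 32 were found in the files. Of these 32, 27 passed the filter, where 9730 of all 17325 genes did. DUXA and ARGFX did not exceed 0.49 and 0.17 FPKM in any library, and both were picked after their values were seen. Of the 27, 16 were higher and 11 lower (median log2 difference 0.07), with 1 lower at an unadjusted p under 0.05, beside 2.66% of all tested genes. The oocyte RNA-binding protein ZAR1L averaged 659 ± 101 and 731 ± 80.7 FPKM (SD, n = 3), and the chromatin protein HMGB1 424 ± 55.1 and 439 ± 48.3 FPKM. GABPA, an ETS transcription factor, averaged 3.53 ± 0.371 and 2.25 ± 0.839 FPKM, a log2 difference of -0.51 (limma adjusted p = 0.763). PADI6, of the oocyte cytoplasmic lattices, averaged 8.51 ± 2.27 and 11.2 ± 0.241 FPKM.

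Of 17 factors of the first embryonic lineages in the files, 9 passed the filter, where 9730 of all 17325 genes did. Of the 9, 5 were higher and 4 lower (median log2 difference 0.06). An unadjusted limma p under 0.05 was reached by 0 of the 9, where 6.53% of all tested genes reached it. The other 8 lay below the filter. Among these were GATA6, SOX17 and TFAP2C, at means of 0.297, 0.797 and 0.003 FPKM over the 6 libraries, named after their values were seen. The trophoblast factor GATA3 averaged 36.8 ± 3.93 and 32.8 ± 3.63 FPKM (SD, n = 3), close to the level of POU5F1. The receptor FGFR1 averaged 18.6 ± 1.23 and 22.5 ± 2.79 FPKM, and ELF5 averaged 3.03 ± 0.916 and 3.83 ± 1.12 FPKM. Across all 7 lists 0 genes passed the adjusted threshold.

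**Figure D5:**
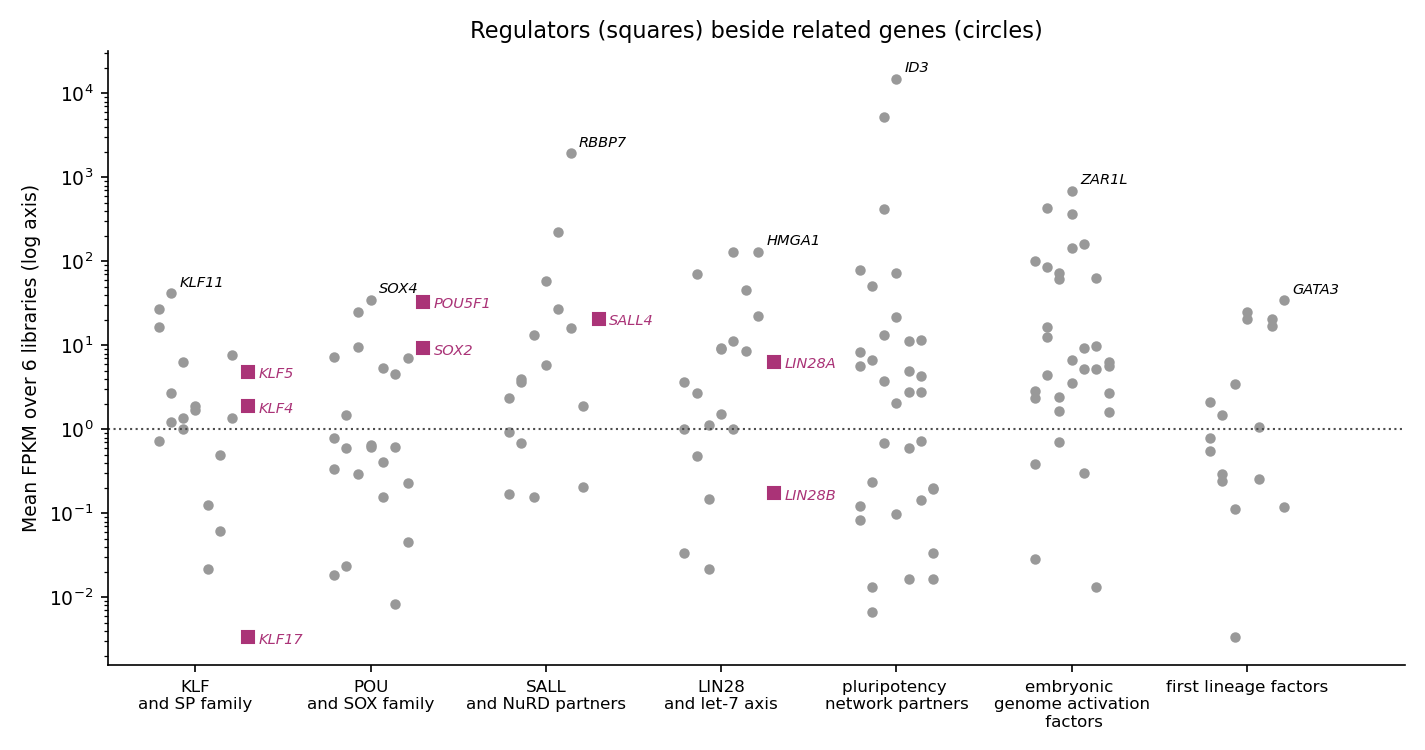
Mean FPKM over the 6 libraries (log axis) of the regulators (squares) beside the related genes of each list (circles); the dotted line is the expression filter, genes at 0 in every library cannot be drawn, and the most abundant gene of each list is named. POU5F1 at 32.8 FPKM stands near the top of the POU and SOX genes, whereas KLF5 and KLF4 lie below KLF11 at 42.1 FPKM.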

How the data were processed

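The authors deposited FPKM values with 2 decimals for 17325 genes in each of 6 libraries, 3 NC and 3 siMTFP1, grouped by title. RNA was extracted with TRIzol and made into mRNA libraries with a BGI kit, per the labels' protocols. Per the submitters' processing notes the build was ARS-UCD1.2 and the tools, with no role named, were RSEM 1.3.1, DESeq2 1.4.5, Bowtie2 2.3.4.3 and HISAT2 2.2.1. Strand use and the division of reads between gene copies are not given in the sources used here. No read totals were recovered from these 2-decimal values, so depth is unknown and no counting interval is given. FPKM summed to 784366 to 892790 per library.

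Values were joined by gene ID, and names, synonyms and neighbours were taken from RefSeq ARS-UCD2.0 (17087 IDs matched). Coordinates are left out, since the builds differ. Genes with a mean of at least 1 FPKM over the 6 libraries (9730) were compared as log2(FPKM + 1) with limma 3.58.1 in R 4.3.3 (trend, group only, two-sided, Benjamini-Hochberg over all tested genes, threshold 0.05). This scale understates differences of low genes. The test was tried on simulated data for these 9730 genes, with 200 changed, and recovered 83.4% of log2 changes of 1. Noise was independent and normal, changed genes were drawn only from levels above that of KLF4, and no change under 1 was simulated. The share therefore does not apply to KLF4 or to smaller differences.

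The regulators and lists were chosen with earlier results of these data known. Named from each list were the 2 most abundant genes and the 2 with the smallest p, and per tested regulator the 3 genes with the highest Pearson r. A gene that this rule names is not reported here. Other list genes were named after their values were seen. Alternatives were other pseudocounts, filters and scalings, a replicate block and leaving out each library. Tables and plots used Python 3.11.15, pandas 2.3.3, scipy 1.17.1 and matplotlib 3.10.9.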

Additional observations from a re-analysis of the deposited data

How the results depend on the processing

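The direction of POU5F1 was kept in 15 of 15 alternatives and that of KLF4 and KLF5 in 14 of 14, since both fall below a filter of 5 FPKM, and no regulator passed the adjusted threshold in any. For POU5F1 most of these could not have turned the sign. Its groups did not overlap, so pseudocounts and leaving out 1 library could not, and filters and the replicate block left the difference unchanged. Only the scalings could have turned it. Leaving out 1 library moved POU5F1 between -0.44 and -0.21, KLF4 between -0.39 and -0.13 and KLF5 between 0.03 and 0.19. The sign turned for SALL4 without siMTFP1 2 (0.0291, range from -0.301), for SOX2 without NC 1 (0.0126, range from -0.479), and for LIN28A without siMTFP1 1 (-0.1006) and without NC 3 (-0.0063; range to 0.199). The number of regulators at an unadjusted p under 0.05 was 0, and 1 (POU5F1) with no filter and without siMTFP1 2, so the range over left-out libraries was 0 to 1. Over all genes, 635 reached that p (376 higher and 259 lower; 323 and 328 with median-ratio scaling, 305 and 355 with quantile normalization), 1037 with no filter, 358 with a filter of 5 FPKM, and 336 (without siMTFP1 2) to 764 (without siMTFP1 1) when 1 library was left out. Genes past the adjusted threshold numbered 0, and 2 with a filter of 5 FPKM or with FPKM rescaled to equal sums, and 0 to 2 with 1 library left out (1 without siMTFP1 1 or 2, 2 without siMTFP1 3). The cause was not tested. Replicate numbers are shared by title only: same-numbered libraries correlated at 0.034, -0.163 and 0.067 in their deviations from the group means, so they were not treated as pairs. With the replicate block POU5F1 stayed at -0.34 (limma adjusted p = 0.765) and SOX2 at -0.26 (limma adjusted p = 0.806). In that fit 630 genes reached an unadjusted p under 0.05. Depth is unknown, so values near 0, such as LIN28B and KLF17, have no detection limit.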
